A study of Mus musculus with 6 samples.

Results

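The Wnt pathway genes described here are the genes of the deposited table whose symbol names a Wnt ligand, a Frizzled, Lrp5/6, Ror or Ryk receptor, a secreted inhibitor, an R-spondin or its receptors, or a protein that relays the signal inside the cell. The rule used the symbol alone and no measured value, although it was set with earlier results of these data known. Of the 13931 genes in the table, 62 met the rule. Of these 62 genes, 44 had an average above 1 log2 CPM, the expression cut-off of the study, and 18 did not. RNA-sequencing was performed on micro-dissected lenses at P0, the day of birth, in 3 Control and 3 Celf1cKO libraries that were each made from pooled lenses, and single values below are given in the order of libraries 1, 2 and 3. Celf1cKO mice carried one Celf1lacZKI allele, which is a germline knockout allele, one Celf1flox allele and the Pax6GFPCre transgene, which drives Cre recombinase in the lens lineage from the placode onwards and also in the pancreatic lineage. The labels give the genotype of Control lenses as Celf1lacZKI/+, so both groups would carry the germline knockout allele. The study's methods give Cre-negative Celf1flox animals as the default controls, so the control genotype is not settled, and this bears on every difference given here. The mice were of mixed genetic background.

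Wnt proteins are secreted, lipid-modified ligands that bind Frizzled receptors together with Lrp5 or Lrp6. In the canonical branch this binding stops a destruction complex of Axin, Apc and Gsk3 from degrading beta-catenin, which then works with Tcf and Lef factors in the nucleus. In the planar polarity branch, Frizzled, Celsr, Vangl, Prickle and Dishevelled proteins orient cells within a sheet. In the lens, canonical signaling is best known from the anterior epithelium, and the planar polarity branch from the ordered alignment of elongating fiber cells. Celf1 encodes an RNA-binding protein that recognizes GU-rich sequences, often in the 3′UTR, and can lower the stability or alter the translation of the transcript.

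Each library held between 40694454 and 44387151 reads on genes, and the 3 reads taken as the detection floor corresponded to between 0.0609 and 0.0807 CPM. Crystallin genes took 45.8% to 46.9% of the reads in Control and 34.7% to 38.5% in Celf1cKO libraries. Celf1 itself was at 9.95, 9.94 and 9.34 log2 CPM in Control and at 8.93, 7.66 and 7.83 log2 CPM in Celf1cKO, so that every Celf1cKO library was lower. This was a log2 fold-change of -1.60 (SE 0.335, limma adjusted p = 0.0269), and an exact two-sided permutation test gave p = 0.1, which is the lowest value possible with 3 libraries per group. Defining markers of the lens were present, with 5 of 5 epithelial and 7 of 8 fiber markers in the table. The summed epithelial markers were at 442, 466 and 508 CPM in Control libraries 1 to 3 and at 370, 145 and 318 CPM in Celf1cKO libraries 1 to 3. All 5 were lower in Celf1cKO, and Foxe3 and Pdgfra were among the called genes, with log2 fold-changes of -2.01 and -1.54. The summed fiber markers ranged from 25073 to 34688 CPM in Control and from 19585 to 20911 CPM in Celf1cKO, and 4 of the 7 were called reduced. Markers of vascular endothelium summed to 106, 85.2 and 96.3 CPM in Control libraries and to 103, 21.8 and 49.3 CPM in Celf1cKO libraries 1 to 3, and all 6 were lower on average in Celf1cKO. Macrophage markers summed to at most 10.3 CPM, retinal markers to at most 17 CPM, pigmented epithelium markers to at most 26.9 CPM and mesenchyme markers to at most 5.33 CPM, and in each of these lists the groups overlapped. Of the 5 erythroid markers only Alas2 was in the table, at no more than 1.35 CPM, and the 5 markers of cornea and skin epithelium were not analysed here. Lens epithelial and vascular endothelial markers were both at their lowest in Celf1cKO library 2, and Celf1cKO library 1 lay nearest to Control in both.

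**Figure D1:**
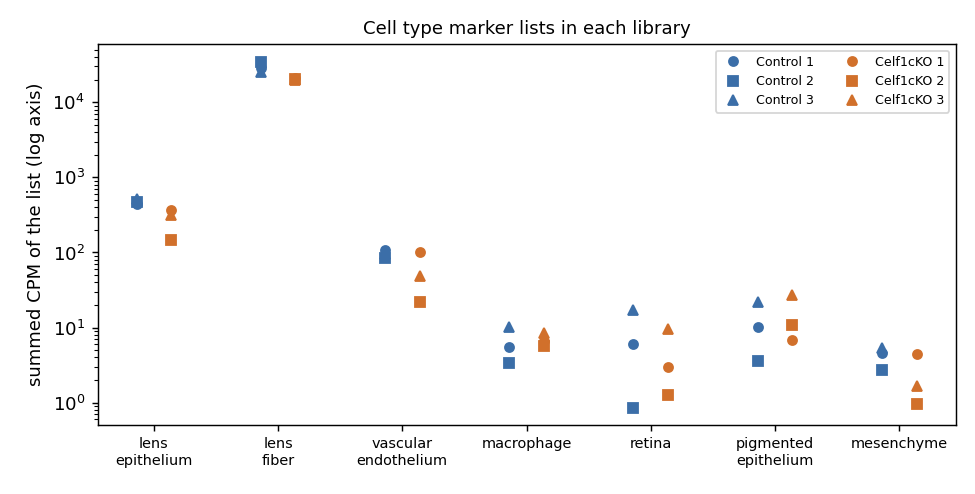
Summed CPM (log axis) of each cell type marker list in the 3 Control and 3 Celf1cKO libraries, with 1 symbol per library. Lens epithelium and lens fiber markers lie apart between the groups, and Celf1cKO library 2 is lowest for epithelium (145 CPM) and endothelium (21.8 CPM).

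Of the 44 expressed Wnt pathway genes, 3 were called in Celf1cKO lenses, which is 6.82% of them, while 9.68% of all expressed genes were called. The call required a limma adjusted p under 0.05, a log2 fold-change beyond 0.58 up or down and an average above 1 log2 CPM. Apc2 and Fzd6 were elevated, at 6.24% for elevated genes over the table, and Prickle1 was reduced, at 3.44% for reduced genes. Without the fold and expression cut-offs, 7 of the 62 genes (11.3%) had an adjusted p under 0.05, against 11.9% of all genes. These were Apc2, Fzd6, Fzd3 and Sfrp4, which were higher (4 of 62, beside 7.85% of all genes), and Prickle1, Wnt7b and Ryk, which were lower (3 of 62, beside 4.03%). The 2 groups of libraries did not overlap for 20 of the 62 genes (32.3%), and this was so for 36.5% of all genes. Celf1cKO was above for 7 and below for 13 of them, and over all genes above for 19.5% and below for 17%. Groups apart with a log2 fold-change beyond 0.58 were found for 13 of the 62 genes (21%) and for 16.7% of all genes. In all, 25 of the genes had a positive and 37 a negative log2 fold-change (59.7% negative, beside 53.6% of all genes), with a median of -0.11 beside -0.04 over all genes. Without Celf1cKO library 2 the median of the 62 genes was -0.01, and without any other single library it lay between -0.20 and -0.08. The summed lens epithelial and lens fiber markers were lower in every Celf1cKO library as well, and their part in the values of the Wnt pathway genes was not tested.

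**Figure D2:**
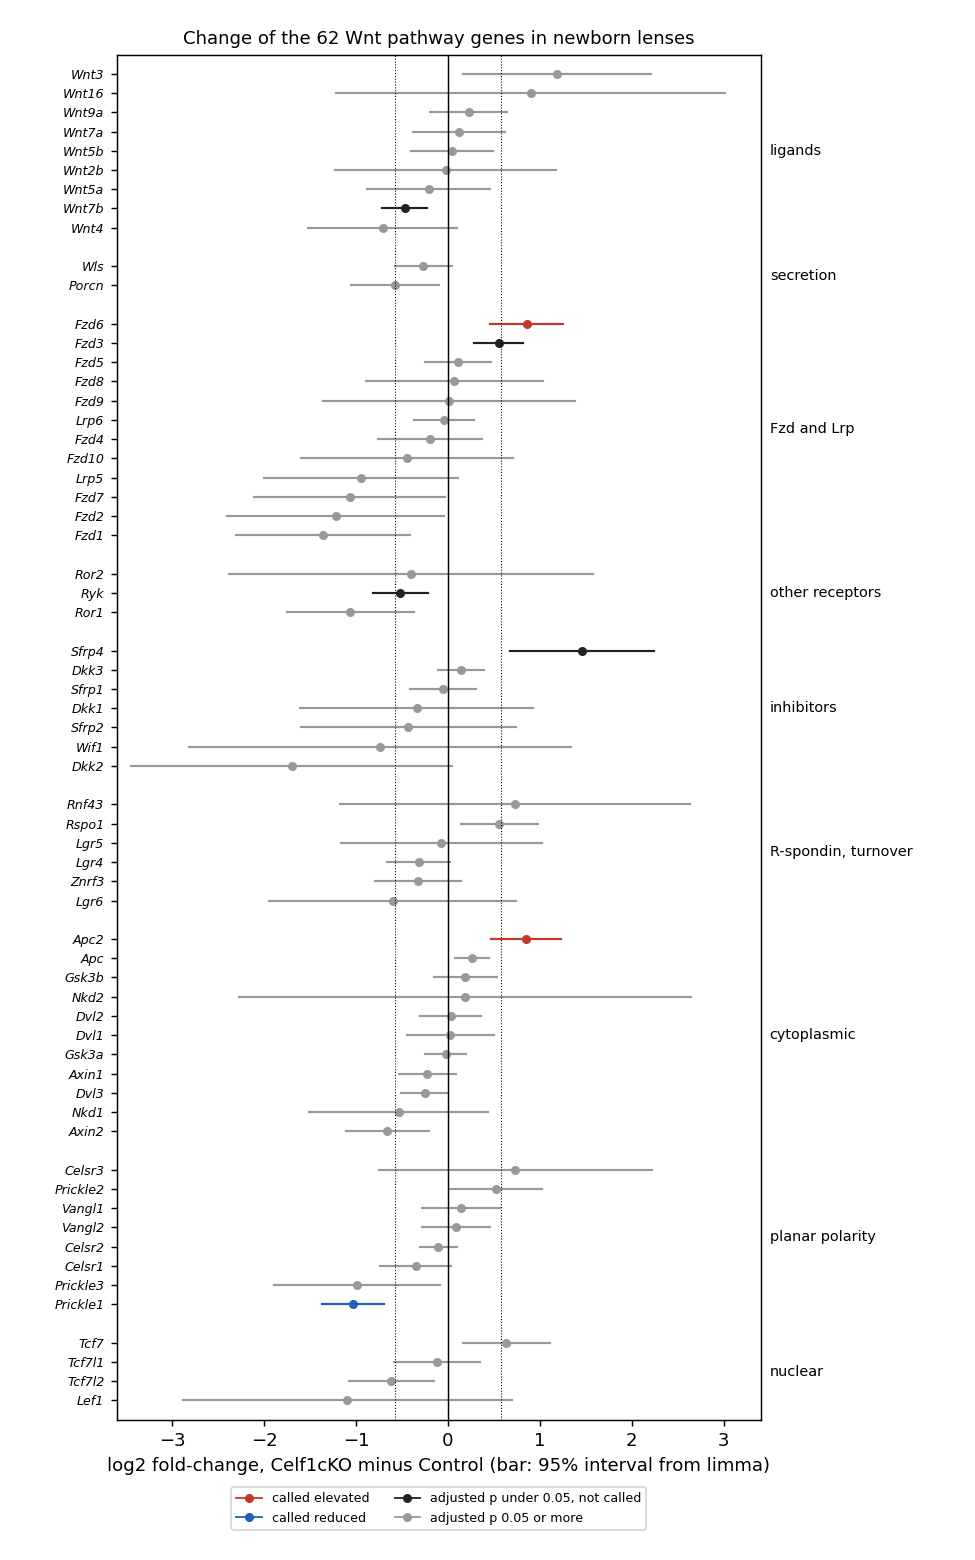
Log2 fold-change of each of the 62 genes, Celf1cKO minus Control, grouped by role, with limma's 95% interval as a bar and dotted lines at 0.58 in either direction. Apc2 and Fzd6 (red) and Prickle1 (blue) passed all cut-offs, and Fzd3, Sfrp4, Wnt7b and Ryk (black) passed the adjusted p only.

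Prickle1 (ENSMUSG00000036158, chr15:93499114-93595891 on the - strand of GRCm38) encodes a cytoplasmic core protein of planar polarity. It was at 6.73, 7.13 and 7.05 log2 CPM in Control and at 6.17, 5.85 and 5.77 log2 CPM in Celf1cKO. All 3 Celf1cKO values were below the lowest Control value, and the gap between the groups was larger than the spread within either. Its level per length fell from 29 ± 4.08 to 14.1 ± 2.11 CPM per kilobase of exon (SD, n = 3 in each group), which was 2.05-fold lower on the log2 CPM scale. The log2 fold-change was -1.04 (SE 0.144, limma adjusted p = 0.0109). It was no longer called without Control library 2, at -0.96 with an adjusted p from limma of 0.0554, or without Celf1cKO library 3, at -0.96 with 0.0691, although only 1 gene of the whole table was called in each of those fits.

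Fzd6 (ENSMUSG00000022297, chr15:39006034-39038188, + strand) encodes a Frizzled receptor best known for planar polarity in skin and hair. It was at 5.53, 5.52 and 5.17 log2 CPM in Control and at 6.01, 6.18 and 6.59 log2 CPM in Celf1cKO. All 3 Celf1cKO libraries were higher, with library 3 the highest. Its log2 fold-change was 0.86 (SE 0.171, limma adjusted p = 0.0235), and without a variance trend the gene lost its call, with a limma adjusted p of 0.0656. Its level per length was 8.86 ± 1.22 CPM per kilobase in Control and 16.2 ± 3.44 CPM per kilobase in Celf1cKO (SD, n = 3). Apc2 (ENSMUSG00000020135, chr10:80295977-80318263, + strand) encodes a relative of Apc that binds beta-catenin and microtubules. It was at 2.30, 2.61 and 2.64 log2 CPM in Control and at 3.21, 3.49 and 3.41 log2 CPM in Celf1cKO. The groups did not overlap, and the log2 fold-change was 0.85 (SE 0.164, limma adjusted p = 0.021). Both elevated genes stayed called when Celf1cKO library 1 was left out, at 0.98 for Fzd6 and 0.93 for Apc2. When any other single library was left out they kept their direction, between 0.69 and 0.92 for Fzd6 and between 0.74 and 0.91 for Apc2, and their adjusted p from limma lay between 0.0519 and 0.108. Those libraries were Control 1, 2 and 3 and Celf1cKO 2 and 3. In those fits the calls over the whole table fell from 1030 to between 1 and 596.

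The 3′UTRs were searched for GU-rich sequences of the kind that CELF1 binds, and windows from 5 of the 14 genes with a match, picked after their values were seen, are shown as examples of the stretches that carry such letters. A GU-rich element was taken as TGTT 2 times over followed by TGT, and a GU repeat as TG 5 times over followed by T, on the transcript strand of the longest annotated 3′UTR (GENCODE M21, GRCm38), with 30-base windows shown and the match in capitals. The windows of the elevated gene Apc2, of Fzd3 and Tcf7, which were higher in every Celf1cKO library, and of Wls and Lrp6, whose groups overlapped, were as follows.
Tcf7, chr11:52252673-52252702, - strand: caagtttttTGTTTGTTTGTtttaactttt
Apc2, chr10:80318026-80318055, + strand: ttacctcacTGTGTGTGTGTGTGTGTctgt
Fzd3, chr14:65194736-65194765, - strand: cttcctaatTGTGTGTGTGTGTGTGTGTGT
Wls, chr3:159934977-159935006, + strand: taatctgtcTGTTTGTTTGTggattttgag
Lrp6, chr6:134447036-134447065, - strand: tttggttttTGTTTGTTTGTtttgtttttt
The repeat of Apc2 is 17 bases long and that of Fzd3 runs on past the window to 49 bases.

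A GU-rich element was present in 6 of the 62 genes (9.68%) and in 4.27% of the 13111 genes with an annotated 3′UTR, and a GU repeat in 9 (14.5%) and in 8.62%. Either was present in 14 of the 62 genes (22.6%) and in 12% of all genes. The Wnt pathway genes also had longer 3′UTRs, with a median of 1798 bases beside 1207 bases. Among 3′UTRs of 1000 to 3000 bases the shares were 17.6% of 34 Wnt pathway genes and 13.1% of 5213 genes. The 14 genes with a match had 8 positive and 6 negative log2 fold-changes and a median of 0.10, and the 48 without had 17 positive and 31 negative ones and a median of -0.24. This split was not matched for 3′UTR length. Lengths ran from 1322 bases (Dkk1) to 10270 bases (Fzd3) with a match, and from 313 bases (Fzd9) to 4774 bases (Fzd4) without. The part of the motif in this difference was not tested. Over the whole table, a match was present in 23.6% of the called elevated genes and in 10.6% of the called reduced genes, whose median 3′UTRs were 1588 and 1524 bases long. Neither motif was found in the longest annotated 3′UTR of Prickle1, Wnt7b, Ryk or Sfrp4. A match describes the letters of the annotated transcript and does not show binding.

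The ligands were led by Wnt7b, at 90 ± 10.9 CPM per kilobase in Control lenses (SD, n = 3), followed by Wnt7a at 34.3 ± 7.12 and Wnt5b at 15.5 ± 2.65 CPM per kilobase. Of the 19 mouse ligand genes, 9 were in the table and 5 of them were expressed above the cut-off, and Wnt1, Wnt2, Wnt3a, Wnt6, Wnt8a, Wnt8b, Wnt9b, Wnt10a, Wnt10b and Wnt11 were not analysed here. Wnt7b (ENSMUSG00000022382, chr15:85535437-85582473, - strand) was at 8.74, 8.97 and 8.63 log2 CPM in Control and at 8.28, 8.37 and 8.28 log2 CPM in Celf1cKO. All Celf1cKO libraries were lower and lay within 0.1 log2 CPM of each other. The log2 fold-change of -0.47 (SE 0.103, limma adjusted p = 0.031) was smaller than the fold cut-off, so Wnt7b was not called. Its adjusted p from limma was 0.0788 without Control library 1, 0.0829 without Control library 2, 0.0749 without Celf1cKO library 2 and 0.133 without Celf1cKO library 3, with log2 fold-changes from -0.50 to -0.38. Antisense overlap touches 6.62% of its exon bases. The libraries were strand-specific, but whether reads were counted by strand is not stated, and the effect of the overlap was not tested.

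Wnt7a, a close relative of Wnt7b, was at 6.49, 7.06 and 6.68 log2 CPM in Control and at 6.45, 7.20 and 6.94 log2 CPM in Celf1cKO. The groups overlapped, and the log2 fold-change was 0.12 (95% interval -0.38 to 0.62). Wnt5b, Wnt9a and Wnt5a, the last of these the usual ligand of Ror receptors, had log2 fold-changes of 0.04, 0.22 and -0.21 and overlapping groups. The remaining ligands were scarce. Wnt4 was at -0.46, -0.18 and -0.18 log2 CPM in Control and at -0.47, -1.33 and -1.14 log2 CPM in Celf1cKO, from 17 to 33 reads per library. Its groups were apart by a small margin, and the log2 fold-change of -0.71 did not pass (adjusted p = 0.216 from limma). Wnt3, at 27 to 40 reads in Control and 44 to 154 reads in Celf1cKO libraries, overlapped on the log2 CPM scale and had an adjusted p of 0.118 from limma. Wnt2b and Wnt16 were between 2 and 44 reads in every library. The secretion genes Wls, which carries Wnts to the cell surface, and Porcn, which attaches their lipid, had log2 fold-changes of -0.27 and -0.57 and overlapping groups. Wls, the more abundant of the pair, was at 6.76, 6.83 and 6.51 log2 CPM in Control and at 6.66, 6.37 and 6.27 log2 CPM in Celf1cKO.

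**Figure D3:**
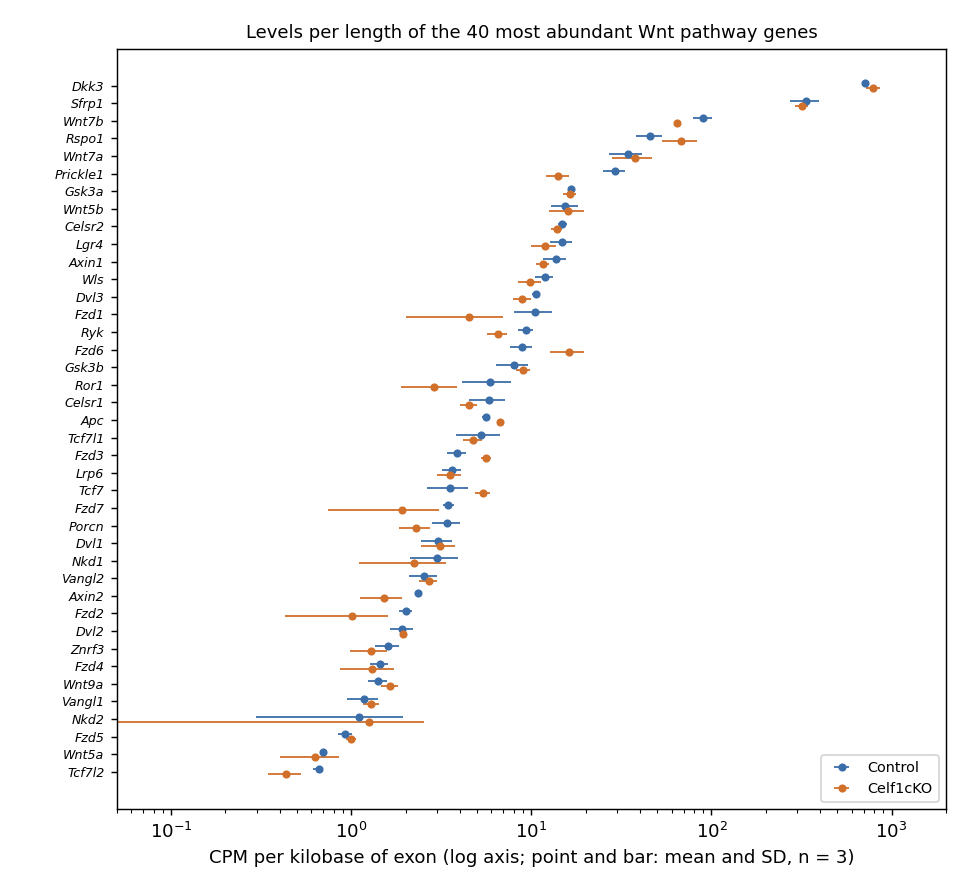
CPM per kilobase of exon (log axis) of the 40 Wnt pathway genes with the highest Control levels, as mean and SD of 3 libraries, with lower bars cut where they would reach 0. Dkk3 and Sfrp1 stand above all ligands and receptors in both groups, and Prickle1, Fzd1 and Ror1 lie lower and Fzd6 higher in Celf1cKO.

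Of the 12 Frizzled and Lrp receptors, 2 had an adjusted p under 0.05 (16.7%, beside 11.9% of all genes). Both of these, Fzd6 and Fzd3, were higher in Celf1cKO, while Fzd1, Fzd2 and Fzd7 were lower in every Celf1cKO library but did not pass the test. Celf1cKO thus lay wholly above Control for 2 and wholly below for 3 of the 12, beside 19.5% and 17% of all genes. Fzd3 (ENSMUSG00000007989, chr14:65192449-65262463, - strand), like Fzd6 a planar polarity receptor and known for axon guidance, was at 5.68, 5.76 and 5.42 log2 CPM in Control and at 6.06, 6.23 and 6.22 log2 CPM in Celf1cKO. The groups did not overlap and the Celf1cKO libraries lay close together. Its log2 fold-change was 0.55 (SE 0.113, limma adjusted p = 0.0256), just under the fold cut-off. Without Celf1cKO library 1 it was 0.61 and Fzd3 was called. Without Control library 1, 2 or 3 or Celf1cKO library 2 or 3 it was between 0.45 and 0.62, and the adjusted p from limma was between 0.0564 and 0.118.

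Fzd1 (ENSMUSG00000044674, chr5:4753839-4758035, - strand) was at 5.05, 5.76 and 5.49 log2 CPM in Control and at 4.89, 3.18 and 4.15 log2 CPM in Celf1cKO. Fzd2 (ENSMUSG00000050288, chr11:102604396-102608058, + strand) was at 2.78, 3.0 and 2.83 log2 CPM in Control and at 2.43, 0.36 and 2.17 log2 CPM in Celf1cKO. Fzd7 (ENSMUSG00000041075, chr1:59482424-59486955, + strand) was at 3.86, 3.98 and 4.06 log2 CPM in Control and at 3.81, 1.82 and 3.07 log2 CPM in Celf1cKO. In each of the 3 genes Celf1cKO library 2 was the lowest and Celf1cKO library 1 nearly reached the Control libraries. The log2 fold-changes were -1.36 (SE 0.405, limma adjusted p = 0.071) for Fzd1, -1.22 (SE 0.505, adjusted p = 0.155) for Fzd2 and -1.07 (SE 0.445, adjusted p = 0.158) for Fzd7. Without Celf1cKO library 2 they were -0.91, -0.57 and -0.53, with adjusted p from limma of 0.109, 0.154 and 0.246. Without Celf1cKO library 1 Fzd1 and Fzd7 were called, at -1.77 (adjusted p = 0.0126 from limma) and -1.53 (0.025), and Fzd2 was not, at -1.61 (0.0605). The same order of Celf1cKO libraries, with 1 highest and 2 lowest, was that of the summed lens epithelial markers (370, 145 and 318 CPM) and vascular endothelial markers (103, 21.8 and 49.3 CPM). It was also the order of Celf1 itself (8.93, 7.66 and 7.83 log2 CPM). The scarce mesenchyme markers (4.40, 0.97 and 1.69 CPM) and the erythroid gene Alas2 (0.49, 0.04 and 0.41 CPM) had this order too. The lens fiber, macrophage, retinal and pigmented epithelium lists did not. The part of Celf1 or of these markers in the differences was not tested, and with these libraries they cannot be told apart. In such bulk samples fewer cells of a type and less RNA per cell cannot be told apart. These 3 receptors are also the most alike of the family, with coding sequence identities of 78.9% between Fzd1 and Fzd2, 76.3% between Fzd2 and Fzd7 and 75.8% between Fzd1 and Fzd7, the highest of the 45 Frizzled pairs. Only uniquely mapped reads were counted, and how far shared stretches moved reads away from them was not tested. Fzd3 and Fzd6, which were higher, shared 58.4%, the 15th highest of the pairs.

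Of the other receptors of this kind, Fzd4 and Fzd5 had log2 fold-changes of -0.20 and 0.11, and Fzd8, Fzd9 and Fzd10 were below the expression cut-off with 4 to 89 reads per library. The co-receptor Lrp6 was at 5.63 ± 0.17 log2 CPM in Control and 5.58 ± 0.22 log2 CPM in Celf1cKO (SD, n = 3), a log2 fold-change of -0.04 (95% interval -0.37 to 0.29). Its relative Lrp5 was at 2.03, 1.48 and 2.77 log2 CPM in Control and at 1.28, 0.36 and 1.82 log2 CPM in Celf1cKO. The groups overlapped, yet within each replicate number the Celf1cKO library was the lower. Its log2 fold-change of -0.94 had a limma adjusted p of 0.207, or 0.0333 when blocked by replicate number.

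**Figure D4:**
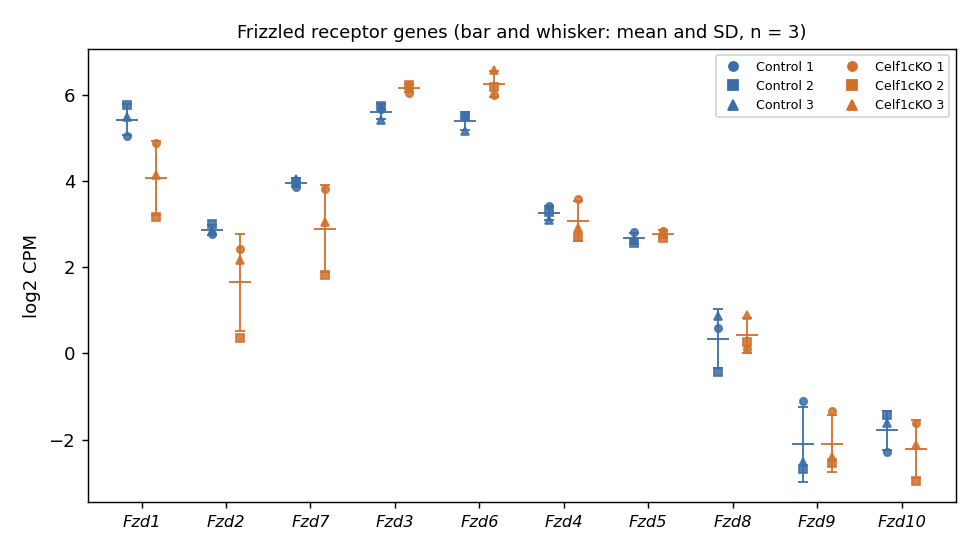
Log2 CPM of the 10 Frizzled genes in each library, with the mean and SD of 3 libraries as bar and whisker. Fzd3 and Fzd6 lie higher in Celf1cKO, whereas Fzd1, Fzd2 and Fzd7 lie lower with a wide spread that Celf1cKO library 2 (squares) sets.

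Of the other receptors, Ryk and Ror1 were lower in every Celf1cKO library. Ryk (ENSMUSG00000032547, chr9:102834917-102908305, + strand), a Wnt receptor with an inactive kinase domain, was at 5.48, 5.47 and 5.24 log2 CPM in Control and at 5.06, 4.68 and 4.90 log2 CPM in Celf1cKO. The groups were apart, with a log2 fold-change of -0.52 (SE 0.128, limma adjusted p = 0.0431), under the fold cut-off. Ryk was called without Celf1cKO library 1, at -0.61, and its adjusted p from limma lay between 0.0623 and 0.143 when Control library 1, 2 or 3 or Celf1cKO library 2 or 3 was left out. Ror1 (ENSMUSG00000035305, chr4:100095791-100444765, + strand), a receptor tyrosine kinase for Wnt5a, was at 5.53, 4.83 and 4.79 log2 CPM in Control and at 4.47, 3.45 and 4.04 log2 CPM in Celf1cKO. All Celf1cKO libraries were lower, and library 2 was again the lowest. The log2 fold-change was -1.06 (SE 0.294), with a limma adjusted p of 0.0584, or 0.0168 when blocked by replicate number. Ror1 was called without Celf1cKO library 1, at -1.30 with an adjusted p of 0.0204. Ror2 overlapped between the groups, from 20 to 145 reads per library.

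The secreted inhibitors included the most abundant Wnt pathway genes of the lens. Dkk3, a member of the Dickkopf family whose role in Wnt signaling is less settled than that of Dkk1, was at 11.20, 11.26 and 11.23 log2 CPM in Control and at 11.25, 11.51 and 11.36 log2 CPM in Celf1cKO. The groups overlapped, and the log2 fold-change was 0.14 (95% interval -0.11 to 0.40). Per length Dkk3 stood at 716 ± 15.2 CPM per kilobase in Control (SD, n = 3). Sfrp1, a secreted decoy that binds Wnts, was next at 334 ± 62.1 CPM per kilobase, with a log2 fold-change of -0.05 (95% interval -0.41 to 0.31). In both groups these levels were above those of every Wnt ligand and receptor in the table.

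Sfrp4 (ENSMUSG00000021319, chr13:19623104-19632994, + strand), a relative of Sfrp1, was scarce but differed between the groups. It was at -0.95, -1.44 and -1.73 log2 CPM in Control and at -0.10, 0.19 and 0.17 log2 CPM in Celf1cKO, from 10 to 18 and from 38 to 53 reads. Every Celf1cKO library was higher, by a log2 fold-change of 1.46 (SE 0.334, limma adjusted p = 0.0349), and Sfrp4 was not called because its average was below the expression cut-off. Without Control library 1, 2 or 3 or Celf1cKO library 2 or 3 the log2 fold-change was between 1.28 and 1.67 and the adjusted p from limma between 0.0549 and 0.148. Dkk2, with 20 to 54 reads in Control and 3 to 34 reads in Celf1cKO libraries, had a log2 fold-change of -1.70 and overlapping groups. Its limma adjusted p was 0.178, or 0.0472 when blocked by replicate number. Dkk1, Sfrp2 and Wif1 were between 4 and 78 reads and overlapped, and Dkk4 and Sfrp5 were not analysed here.

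R-spondins raise the number of Wnt receptors at the surface by binding Lgr receptors and the ubiquitin ligases Rnf43 and Znrf3. Rspo1 was the fourth most abundant Wnt pathway gene per length, at 45.7 ± 7.4 CPM per kilobase in Control and 67.8 ± 14.8 CPM per kilobase in Celf1cKO (SD, n = 3). It was at 6.35, 6.71 and 6.30 log2 CPM in Control and at 6.68, 7.32 and 7.04 log2 CPM in Celf1cKO. The groups overlapped by a small margin, and each Celf1cKO library was above the Control library of its number. The log2 fold-change was 0.56 (SE 0.18), with a limma adjusted p of 0.086, or 0.0247 when blocked by replicate number. Without Celf1cKO library 1 Rspo1 was called, at 0.73 with an adjusted p of 0.0206 from limma. Lgr4, the most abundant of its receptors per length, and Znrf3 had log2 fold-changes of -0.32 and -0.32 and overlapping groups. Lgr5, Lgr6 and Rnf43 were at or under 43 reads in every library, and Rspo2, Rspo3 and Rspo4 were not analysed here.

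Inside the cell, 11 genes of the relay and the destruction complex were all above the expression cut-off, and Apc2 alone of them was called. This was 9.09% of the class, beside 9.68% of all expressed genes. Apc, the widely expressed relative of Apc2, was at 6.50, 6.56 and 6.42 log2 CPM in Control and at 6.69, 6.81 and 6.79 log2 CPM in Celf1cKO. The groups did not overlap, but the difference was small, with a log2 fold-change of 0.26 (SE 0.0804, limma adjusted p = 0.0754). Axin2 (ENSMUSG00000000142, chr11:108920349-108950783, + strand), a scaffold of the complex and itself a common readout of canonical signaling, was at 3.69, 3.64 and 3.75 log2 CPM in Control and at 3.44, 2.78 and 2.88 log2 CPM in Celf1cKO. All Celf1cKO libraries were lower, while the Control libraries hardly differed. Its log2 fold-change of -0.66 (SE 0.193) had an adjusted p of 0.067 from limma, and without Celf1cKO library 1 it was called at -0.86 (adjusted p = 0.00817). Axin1, Gsk3a, Gsk3b and the 3 Dishevelled genes had log2 fold-changes between -0.25 and 0.19, with Dvl3 alone of these apart between the groups. The inhibitors Nkd1 and Nkd2 overlapped between the groups, and Nkd2 ranged from -0.27 to 3.71 log2 CPM across libraries.

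Besides Prickle1, 0 of the other 7 planar polarity genes passed the test by limma, with 2 of them, Prickle2 and Prickle3, under an unadjusted p of 0.05, as were 29.9% of all genes. Celsr2, an atypical cadherin and the most abundant of them by log2 CPM, was at 7.39, 7.51 and 7.35 log2 CPM in Control and at 7.22, 7.42 and 7.30 log2 CPM in Celf1cKO. The groups overlapped (log2 fold-change -0.10, 95% interval -0.31 to 0.10), and with libraries scaled by their total reads the sign turned, to 0.12. Vangl1 and Vangl2, its membrane partners, had log2 fold-changes of 0.14 and 0.09, and that of Celsr1, lower in all Celf1cKO libraries, was -0.35 (limma adjusted p = 0.202). Within the Prickle family the values ran in both directions. Prickle2, at 0.96 to 1.37 log2 CPM in Control and 1.57 to 1.88 log2 CPM in Celf1cKO, was higher in every Celf1cKO library, with a log2 fold-change of 0.52 that did not pass (adjusted p = 0.16 from limma). Prickle3 was at 1.0, 0.68 and 1.27 log2 CPM in Control and at 0.28, -0.78 and 0.49 log2 CPM in Celf1cKO. It was lower in all 3 (log2 fold-change -0.99, adjusted p = 0.138 from limma) and below the expression cut-off, and Prickle4 was not analysed here.

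In the nucleus, 0 of the 4 genes of the Tcf and Lef factors that bind beta-catenin had an adjusted p under 0.05 in the main limma fit. Their log2 fold-changes differed in sign. Tcf7 (ENSMUSG00000000782, chr11:52252371-52283014, - strand) was at 3.55, 2.81 and 3.19 log2 CPM in Control and at 3.95, 3.67 and 3.83 log2 CPM in Celf1cKO. Every Celf1cKO library was higher, with a log2 fold-change of 0.64 (SE 0.202), a limma adjusted p of 0.0837, or 0.0382 when blocked by replicate number. Tcf7l2 (ENSMUSG00000024985, chr19:55741820-55933654, + strand) was at 2.62, 2.54 and 2.43 log2 CPM in Control and at 2.23, 1.76 and 1.75 log2 CPM in Celf1cKO. Here every Celf1cKO library was lower (log2 fold-change -0.61, SE 0.199, limma adjusted p = 0.0872), and the gene was called without Celf1cKO library 1, at -0.77 (adjusted p = 0.027). Tcf7l1, the most abundant of the 4 by log2 CPM and mainly known as a repressor, was at 4.76, 4.15 and 4.08 log2 CPM in Control and at 4.39, 4.06 and 4.19 log2 CPM in Celf1cKO. It overlapped, and its log2 fold-change of -0.12 turned to 0.10 without Control library 1 and to 0.11 with total-read scaling. Lef1 was scarce and variable, from -1.12 to 2.22 log2 CPM, with its lowest value in Celf1cKO library 2.

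**Figure D5:**
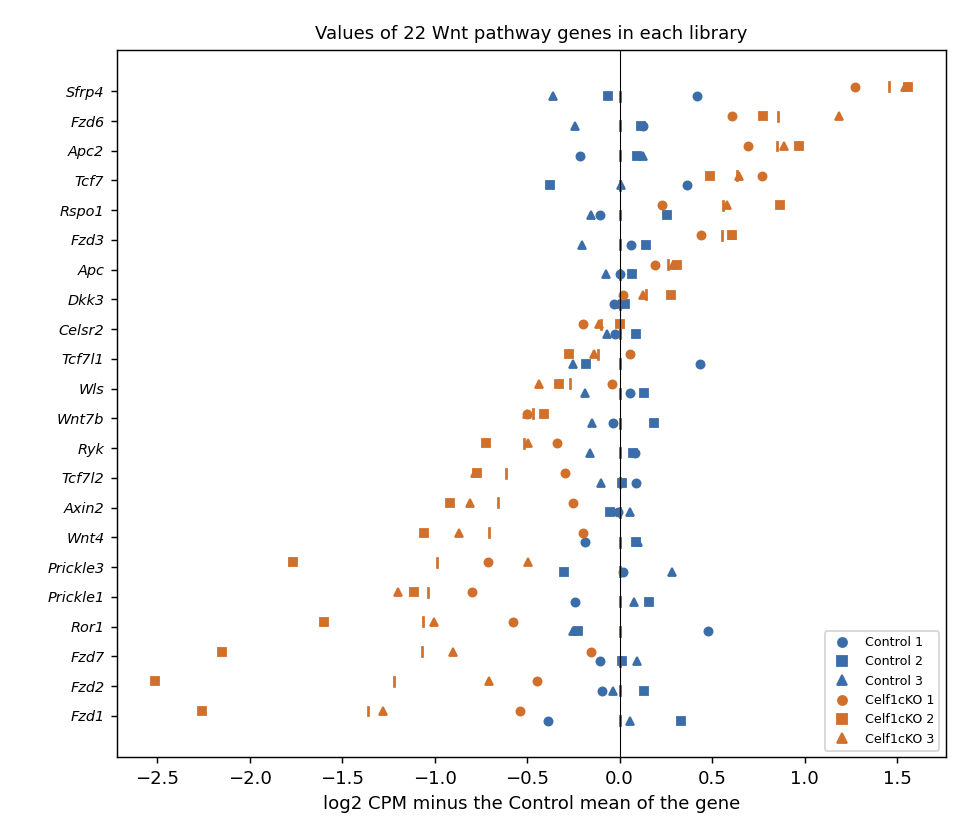
Log2 CPM of 22 Wnt pathway genes in each library, relative to the Control mean of the gene, with 1 symbol per library and a tick at each group mean. Prickle1, Fzd6 and Apc2 separate in all libraries, and for Fzd1, Fzd2 and Fzd7 Celf1cKO library 2 lies farthest left and Celf1cKO library 1 nearest to Control.

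The libraries did not weigh alike on these genes. Celf1cKO library 2 had the lowest value of the 6 libraries for 25 of the 62 Wnt pathway genes (40.3%), while it was lowest for 25.1% of all genes. The spread was larger in Celf1cKO than in Control for 37 of the 62 genes (59.7%), beside 50.8% of all genes, with median SDs of 0.32 and 0.26 log2 CPM. Leaving out Celf1cKO library 1, the one nearest to Control in Celf1 and in the summed lens epithelial, lens fiber and endothelial markers, raised the number of called Wnt pathway genes from 3 to 12. These were Apc2, Fzd3, Fzd6 and Rspo1 among the elevated and Axin2, Fzd1, Fzd7, Porcn, Prickle1, Ror1, Ryk and Tcf7l2 among the reduced, while the number over the whole table went from 1030 to 1916. Leaving out Celf1cKO library 2, Control library 1 or Control library 3 left Prickle1 alone, and leaving out Control library 2 or Celf1cKO library 3 left 0. Over the whole table the first 3 of these fits gave 436, 596 and 438 calls, and the last 2 gave 1 call each. In a fit blocked by replicate number 6 of the 44 expressed genes (13.6%) were called, beside 12% of all expressed genes. The 3 added were Tcf7, Ror1 and Lrp5.

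Other genes of the pathway, taken from a list of 48 partners of which 47 were in the table, showed 3 calls among 41 expressed genes (7.32%, beside 9.68% of all expressed genes), all outside the extracellular partners. Csnk1d, a casein kinase that phosphorylates Wnt pathway proteins, was at 6.21, 6.17 and 6.14 log2 CPM in Control and at 6.86, 7.19 and 7.28 log2 CPM in Celf1cKO. It was elevated in every library, with a log2 fold-change of 0.94 (SE 0.116, limma adjusted p = 0.0094). Pygo1, a nuclear co-activator of beta-catenin, was at 3.83, 3.79 and 3.71 log2 CPM in Control and at 4.52, 4.75 and 4.85 log2 CPM in Celf1cKO. It too was elevated throughout, by 0.93 (SE 0.122, limma adjusted p = 0.0101). Daam2, a formin that binds Dishevelled, was reduced, from 6.93, 6.88 and 7.24 log2 CPM to 6.29, 4.35 and 5.26 log2 CPM. Its log2 fold-change was -1.71 (SE 0.428, limma adjusted p = 0.0441), and Celf1cKO library 2 was the lowest. Csnk1d and Pygo1 were not called without Control library 2 (adjusted p = 0.0512 from limma for both) or Celf1cKO library 3 (0.0607 and 0.0711). Each of those fits called only 1 gene over the whole table. Among the 6 fits that left out a library, Daam2 was called only without Celf1cKO library 1, at -2.21. Without Control libraries 1, 2 and 3 and Celf1cKO libraries 2 and 3 its log2 fold-change was -1.76, -1.78, -1.60, -1.24 and -1.69.

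Ctnnb1, which encodes beta-catenin, was at 9.47, 9.61 and 9.46 log2 CPM in Control and at 9.28, 9.19 and 9.22 log2 CPM in Celf1cKO. The groups did not overlap, and the log2 fold-change of -0.28 did not pass (adjusted p = 0.0699 from limma). Below the fold cut-off, 5 further partners had an adjusted p under 0.05, which made 8 of 47 (17%) beside 11.9% of all genes. Tnks and Tnks2, the tankyrases that mark Axin for degradation, were higher by 0.51 and 0.55. Tle3 and Tle5, of the nuclear partners, and the formin gene Daam1 had log2 fold-changes of -0.54, -0.31 and -0.33. Of the 13 extracellular partners 12 had a negative log2 fold-change, with a median of -0.64, beside 53.6% negative and a median of -0.04 over all genes. None of the 13 passed the test by limma, and 1 was under an unadjusted p of 0.05, beside 29.9% of all genes. Celf1cKO library 2 was the lowest of all libraries for each of the 13 but Frzb and Ptk7, as it was for 25.1% of all genes. Apcdd1, for example, had 128 reads there and 694 to 1397 reads in the other libraries. Sost, Kremen2 and Frzb were scarce, with at most 59 reads in any library. In a fit blocked by replicate number, Draxin (-1.65, adjusted p = 0.0439), Bcl9l (-0.89, 0.0294) and Ccdc88c (-1.24, 0.0196) were called as well.

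A list of 16 genes often named as induced by beta-catenin, 15 of them in the table, gave 0 calls by limma among its 11 expressed genes, beside 9.68% of all expressed genes. Under an unadjusted p of 0.05 were 4 of the 15 (26.7%), beside 29.9% of all genes. These were Axin2, Myc and the higher genes Tcf7 and Cd44. In a fit blocked by replicate number Tcf7 was called. Of the 15 genes, 11 had a negative log2 fold-change (73.3%, beside 53.6% of all genes), with a median of -0.34 beside -0.04 over all genes. Myc was at 0.16, 0.76 and 1.12 log2 CPM in Control and at -0.52, -0.23 and -0.12 log2 CPM in Celf1cKO, lower in each, with an adjusted p of 0.098 from limma. Ccnd1, the most abundant of the list by log2 CPM, had a log2 fold-change of 0.13 and overlapping groups. The list shares Axin2, Nkd1, Lef1, Tcf7, Znrf3, Rnf43, Lgr5 and Dkk1 with the 62 Wnt pathway genes, so the counts are not separate from those above.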

How the data were processed

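RNA from 3 Control and 3 Celf1cKO P0 lens pools was measured by strand-specific RNA-seq. After trimming, the authors used STAR (2.7.8a) on GRCm38.p6, counted uniquely mapped reads per gene with featureCounts (2.0.0), removed genes of very low CPM and tested with edgeR. They deposited log2 CPM per library, with a prior count, for 13931 genes, and an average log2 CPM that was used for the expression cut-off. The log2 fold-changes, F scores, p-values and FDR that the authors deposited from edgeR were not used. The steps between the values gave back the read numbers, of which 100% were whole within 0.05 reads. Errors are the spread between libraries, without counting intervals.

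The deposited log2 CPM of the groups were compared with limma (3.58.1 in R 4.3.3) with a variance trend (prior degrees of freedom 3.4), and p-values were adjusted by Benjamini-Hochberg over all genes, in place of the edgeR test of the study, because the values are not counts. The cut-offs were an adjusted p of 0.05, a log2 fold-change of 0.58 and an average log2 CPM of 1. Fold-changes are on the log2 CPM scale with the prior count, which understates the changes of scarce genes. Levels per length used the exon bases of GENCODE M21, coding identities were computed with mafft 7.526, and plots were made with matplotlib 3.10.9 (Python 3.11.15). Same-numbered libraries deviated together from their group means (correlations across genes of 0.26, 0.39 and 0.38), and the pairing rests on the numbers in the labels, as the paper describes none. Blocked values are given where they change a call. Some 3′UTR sequence windows are not reported here.

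The genes, their role classes and the other lists were chosen with earlier results of these data known. Every one of the 62 genes with an adjusted p under 0.05, or with groups apart and a log2 fold-change beyond 0.58, and the most abundant of each class by log2 CPM, is given with its value in each library, and Lrp5, Dkk2, Wnt7a, Wnt3, Prickle2 and Myc were added once values were known. Alternatives left out the variance trend or each library in turn, added the replicate block or robust empirical Bayes, used log2(CPM + 1), total-read scaling, quantile normalization, median centring or scaling without crystallin genes, ran limma voom on recovered reads, adjusted over expressed genes or moved the cut-offs.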

Additional observations from a re-analysis of the deposited data

How the results depend on the processing

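The 2 elevated Wnt pathway genes became 1 without a variance trend, where Fzd6 was lost (adjusted p from limma of 0.0656), 6 with total-read scaling and 0 at an adjusted p of 0.01 or a fold cut-off of 1, and ranged from 0 to 4 with each library left out. Fzd3, Wnt7b and Ryk no longer had an adjusted p under 0.05 without the trend (0.0714, 0.0838 and 0.0901 from limma). Over the whole table the calls fell from 1030 to 421 without it. With total-read scaling Wnt7b and Ryk did not pass the adjusted p either, at log2 fold-changes of -0.24 and -0.29. Under the fold cut-off, Apc and Dkk3 newly had an adjusted p under 0.05 by limma with that scaling, at 0.49 and 0.37. The 1 reduced gene became 3 with the replicate block or without a fold cut-off, 2 with quantile normalization or adjustment over expressed genes only, 5 at an adjusted p of 0.1 and 0 at 0.01, and ranged from 0 to 8 with each library left out. The 3 called partners became 6 with the block, 7 with total-read scaling, 5 and 1 at an adjusted p of 0.1 and 0.01, 1 at a fold cut-off of 1 and 8 without one (0 to 12 with each library left out). The 0 called beta-catenin targets became 1 with the block, 2 with total-read scaling and 3 at an adjusted p of 0.1 (0 to 2 with each library left out). For Celf1 the adjusted p from limma was 0.0693 without a variance trend, at the same log2 fold-change of -1.60, and the log2 fold-change ranged from -1.99 to -1.36 with each library left out, with an adjusted p from limma of 0.05 or more in 5 of the 6 fits, all but that without Celf1cKO library 1. Of 22 Wnt pathway genes followed through the alternatives, the sign turned for 2, Celsr2 and Tcf7l1. The log2 fold-change of Celsr2 was 0.12 with total-read scaling. That of Tcf7l1 was 0.11 with total-read scaling and from -0.24 to 0.10 with each library left out. Some Wnt pathway genes outside these 22 also changed sign with a library left out. Among them were Wnt7a (-0.05 to 0.32), Wnt5a (-0.44 to 0.11), Sfrp1 (-0.21 to 0.06) and Lrp6 (-0.15 to 0.07). The cause of these shifts was not tested. Total-read scaling moved the median log2 fold-change of all expressed genes from 0.00 to 0.23 and the share of elevated genes among all calls from 64.5% to 89.1%, so that values under it are relative to that shift. Of the 349 alternative values for 22 Wnt pathway genes, 293 kept direction and side of the threshold, 37 no longer passed, 16 newly passed and 3 changed sign. The pairing of replicate numbers changed no call beyond those given with the results. The 3 libraries per group limit what can be shown, and for genes of a few reads depth does too.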
